A study of Neurospora crassa with 18 samples.

Results

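The genes for the pheromone precursors and pheromone receptors of *Neurospora crassa* are 4 of the 9730 genes counted in this RNA-seq series. They are *ccg-4* (NCU02500), *mfa-1* (NCU16992), *pre-1* (NCU00138) and *pre-2* (NCU05758), and they were chosen by name and role, with earlier results of these data known. RNA was counted in germinated conidia of 4 strains, with 2 poly-A+ libraries each. The WT strain (N623) is *mat A* and carries the *his-3* mutation. The parent strain (N2930) is *mat A* and carries *his-3* and Δ*mus-52*::*bar*. The *ash1*(Y888F) strain (N4878) is *mat A*, carries *his-3*, and has a point mutation in the catalytic domain of ASH1 together with a 3xFLAG tag and the *hph* marker. The Δ*set-2* strain (N5761) carries Δ*set-2*::*hph*, is *mat a* and has no *his-3* mutation. ASH1 and SET-2 are the histone methyltransferases that place methyl groups on lysine 36 of histone H3, and the comparisons ask which genes change in RNA when either is lost. Each genotype is a single strain. In Δ*set-2*, the loss of SET-2, the mating type and *his-3* cannot be told apart, and in *ash1*(Y888F) the mutation and the tagged allele cannot be told apart.

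*N. crassa* is heterothallic, so a *mat A* strain mates only with a *mat a* strain. Each mating type secretes its own peptide pheromone, and the female hyphae of the other type grow toward it. CCG-4 is the precursor of the *mat A* pheromone, a peptide of the type of yeast alpha factor, and its gene was first isolated as a clock-controlled gene. MFA-1 is the precursor of the *mat a* pheromone, a lipid-modified peptide of the type of yeast a-factor. PRE-1 is the Ste3-type receptor, through which *mat A* females sense the *mat a* pheromone, and PRE-2 is the Ste2-type receptor, through which *mat a* females sense the *mat A* pheromone. Both are G protein-coupled receptors, and the signal passes through a heterotrimeric G protein to a MAP kinase cascade that ends in MAK-2.

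A library held 6547197 to 8837798 counts in genes. The 2 libraries of a strain had a Spearman's rho of 0.959 for *ash1*(Y888F) and 0.985 for each other strain, and their counts differed beyond sampling noise in every strain. *mus-52* had 2 counts in each parent library against 255 to 483 in the other strains. *set-2* had 46 and 50 counts in Δ*set-2* against 113 to 210 elsewhere, and how much of the counted span is deleted is not given in the sources used here. All 3 listed *mat A* genes were at 0 counts in both Δ*set-2* libraries, whose stated genotype is *mat a*. The library names carry 3 dates, one for WT and the parent, one for the first *ash1*(Y888F) library, and one for the second *ash1*(Y888F) library and Δ*set-2*. What is dated is not stated, so date and strain cannot be told apart between WT and either mutant.

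The 4 genes lie on 4 linkage groups of the NC12 assembly. *ccg-4* spans 2531832 to 2533997 of linkage group I on the minus strand (2166 bases), and *mfa-1* spans 3396270 to 3397430 of linkage group V on the minus strand (1161 bases). *pre-1* spans 2752660 to 2756067 of linkage group III on the plus strand (3408 bases), and *pre-2* spans 3727404 to 3729156 of linkage group VII on the plus strand (1753 bases). The spans cover the whole gene, and no annotated gene overlaps any of them.

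All 4 genes are on the list of genes marked by ASH1, that is, with a mean level of H3K36me2 in Δ*set-2* above that of the centromeres. Of all 9730 genes, 1970 (20.2%) are on that list. None of the 4 is among the 836 genes marked by H3K27me2/3, the modification of Polycomb-type silencing, and none is among the 592 genes whose change in H3K27 methylation was tabulated. Of the ASH1-marked genes, 69.5% likewise lack H3K27me2/3. Each list comes from 1 ChIP-seq sample, so membership has no replicate check. *ccg-4*, *mfa-1* and *pre-1* are isolated marked genes, each flanked on both sides by unmarked ones. *pre-2* differs in lying within a run of 6 consecutive marked genes. *pre-2* is also the nearest of the 4 to H3K27me2/3, with the closest listed gene (NCU05769) 33.4 kb away, against 1405, 2050 and 2560 kb for *pre-1*, *ccg-4* and *mfa-1*.

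The 4 genes were near silent in WT. *ccg-4* had 5 and 3 counts, *mfa-1* 11 and 9, *pre-1* 19 and 17, and *pre-2* 3 and 1. In CPM (counts relative to the TMM-scaled library size) these are means of 0.558 ± 0.224 for *ccg-4*, 1.39 ± 0.265 for *mfa-1*, 2.50 ± 0.321 for *pre-1* and 0.282 ± 0.210 for *pre-2* (SD, n = 2). The WT strain is *mat A*, yet its levels did not separate the genes by the mating type they serve. Per kb of gene span, the level of *mfa-1* (1.20 CPM per kb) was the highest of the 4 in WT, followed by *pre-1* (0.732), *ccg-4* (0.258) and *pre-2* (0.161). Per kb, the libraries of *mfa-1* and *pre-1* did not overlap, while those of *ccg-4* and *pre-2* did, so the last 2 places have no order. Without division by the spans, *pre-1* was above *mfa-1* in WT, at 2.72 and 2.27 CPM against 1.58 and 1.20. The first place of *mfa-1* therefore rests on the spans. Among all genes ranked by CPM per kb, *mfa-1* stood at percentiles 26.6 and 25.7 in the WT libraries, *pre-1* at 23.2 and 23.3, *ccg-4* at 18.8 and 17.3, and *pre-2* at 17.6 and 13.9.

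**Figure D1:**
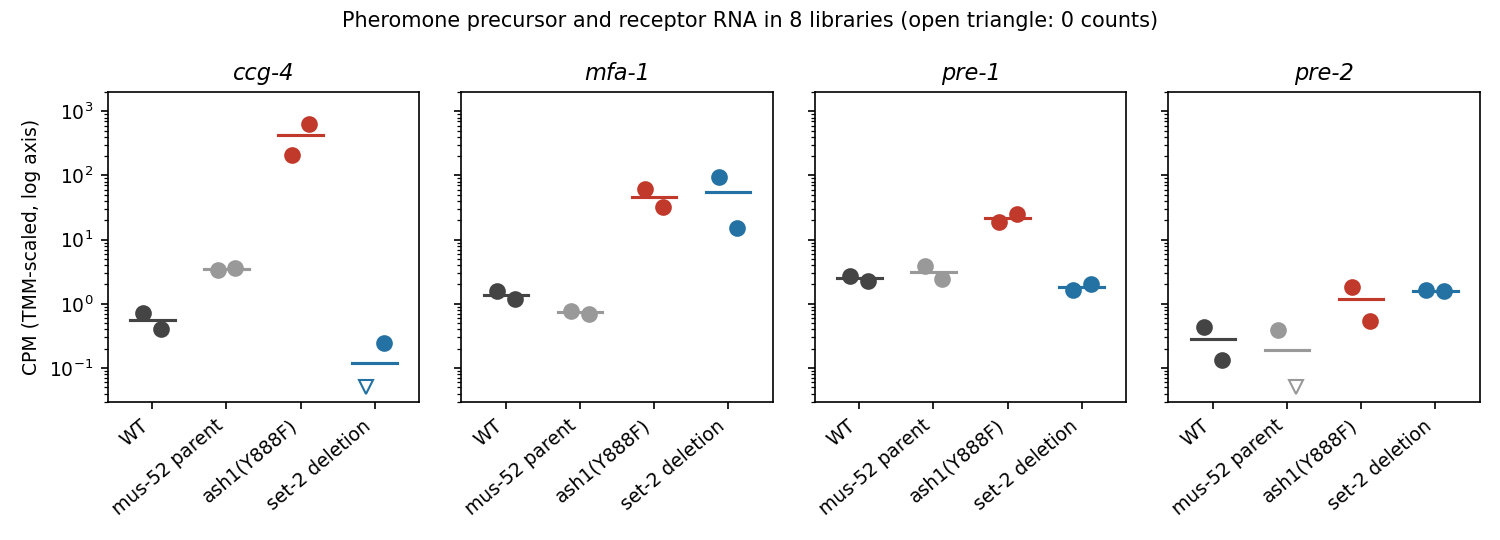
CPM scaled by TMM (log axis) of *ccg-4*, *mfa-1*, *pre-1* and *pre-2* in each of the 8 libraries, with a line at the mean of the 2 libraries of a strain and an open triangle for a library with 0 counts. *ccg-4* and *pre-1* were highest in both *ash1*(Y888F) libraries, *mfa-1* was high in *ash1*(Y888F) and Δ*set-2*, and *pre-2* stayed at or under 1.84 CPM in every library.

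In *ash1*(Y888F), both precursor genes and the receptor gene *pre-1* rose, and *pre-2* was too low to be tested. The largest change was in *ccg-4*, the precursor gene of the strain's own mating type. *ccg-4* had 1382 and 4840 counts in *ash1*(Y888F), or 212 and 642 CPM, against 0.716 and 0.400 CPM in WT. Both mutant libraries lay far above both WT libraries, and they were themselves 3.03-fold apart. The log2 fold change was 9.57 (SE 0.82, adjusted p = 0.00318, edgeR's quasi-likelihood test with Benjamini-Hochberg adjustment), the 19th highest of 8125 genes tested. By summed counts the ratio was 801, with an exact 95% interval of 406 to 1856 that covers counting error only. Per kb, *ccg-4* moved from percentiles 18.8 and 17.3 of all genes in WT to 91.8 and 97.7.

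*mfa-1*, the precursor gene of the opposite mating type, rose in the same *mat A* strain. It had 395 and 240 counts in *ash1*(Y888F), or 60.6 and 31.8 CPM, against 1.58 and 1.20 CPM in WT. The groups did not overlap. The log2 fold change was 5.07 (SE 0.48, edgeR adjusted p = 0.00418), and the ratio of summed counts was 32.7 (exact 95% counting interval 21.0 to 53.9). *mfa-1* reached percentiles 85.2 and 76.6 of all genes per kb.

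*pre-1*, the receptor of *mat A* females, rose less than either precursor gene by its log2 fold change. It had 122 and 191 counts in *ash1*(Y888F), or 18.7 and 25.3 CPM, against 2.72 and 2.27 CPM in WT. The groups did not overlap, and the log2 fold change was 3.16 (SE 0.38, edgeR adjusted p = 0.00686), with a ratio of summed counts of 8.95 (exact 95% counting interval 6.33 to 13.02). Per kb its level stayed among the weaker genes, at percentiles 37.7 and 42.0.

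*pre-2*, the receptor of *mat a* females, had 12 and 4 counts in *ash1*(Y888F), or 1.84 and 0.530 CPM, against 0.430 and 0.133 CPM in WT. Both mutant values were above both WT values, the lower one only just. The gene did not pass the filter on low counts. Without the filter the log2 fold change was 2.01 (SE 1.03, edgeR adjusted p = 0.297), so a change was not detectable at this depth, and the ratio of summed counts was 4.12 (exact 95% counting interval 1.33 to 16.9).

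Thus 3 of the 4 genes were called higher and *pre-2* was not tested. Of all 8125 genes tested, 12.96% were higher and 3.36% lower at an adjusted p under 0.1. For all 4 genes both *ash1*(Y888F) libraries lay above both WT libraries, as they did for 28.2% of all genes tested. Among the 954 tested genes that share their chromatin class, marked by ASH1 and free of H3K27me2/3, 56.5% were higher, with a median log2 fold change of 2.13. *ccg-4*, *mfa-1* and *pre-1* all lay above that median. *ccg-4* and *mfa-1* passed the filter through the *ash1*(Y888F) libraries alone, and *pre-1* was high enough in both strains. A lower call was therefore hardly open to *ccg-4* and *mfa-1*, and their direction is not a separate result. The filter left 954 genes of that chromatin class here against 655 for Δ*set-2* and WT, so the class share and median depend on it too. The median of all genes tested was 0.01. In bulk RNA, more cells with a transcript and more transcript per cell cannot be told apart.

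The parent strain gives a second control that shares *mat A* and *his-3* with WT and *ash1*(Y888F). *ccg-4* had 26 and 31 counts in the parent, or 3.35 and 3.59 CPM, above both WT libraries. *ccg-4* had the third highest log2 fold change of 7464 genes tested there, at 2.61 (SE 0.45), with an edgeR adjusted p of 0.102 and an unadjusted p of 0.00214. It thus missed the threshold of 0.1, and by DESeq2 it passed it (log2 fold change 2.64, adjusted p = 0.0443). *ccg-4* passed the filter of this comparison through the parent libraries alone, so a lower call was hardly open to it. Its direction is not a separate result, and its rank is among genes that passed that filter. None of the 4 genes was called between the parent and WT by edgeR, where 1.78% of all genes were. At an unadjusted p under 0.05, 1 of them passed.

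The other 3 genes were near WT levels in the parent. *mfa-1* had 6 counts in both parent libraries and *pre-2* 3 and 0, and neither could be tested. Their ratios of summed counts over WT were 0.530 (exact 95% counting interval 0.236 to 1.14) and 0.663 (0.0970 to 3.92). *pre-1* had 30 and 21 counts, which overlapped WT in CPM, and its log2 fold change was 0.32 (SE 0.39, edgeR adjusted p = 0.701).

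With the parent in place of WT, *ccg-4*, *mfa-1* and *pre-1* were again higher in *ash1*(Y888F). The log2 fold change of *ccg-4* was 6.96 (SE 0.69, edgeR adjusted p = 0.00426), that of *mfa-1* 5.97 (SE 0.50, adjusted p = 0.00311) and that of *pre-1* 2.83 (SE 0.39, adjusted p = 0.0089). Higher genes made up 15.9% of all genes tested against the parent. Both contrasts use the same *ash1*(Y888F) libraries, so they are not separate evidence. Against the parent too, *mfa-1* passed the filter through the *ash1*(Y888F) libraries alone, so a lower call was hardly open to it. *ccg-4* and *pre-1* were high enough in both strains of this contrast.

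**Figure D2:**
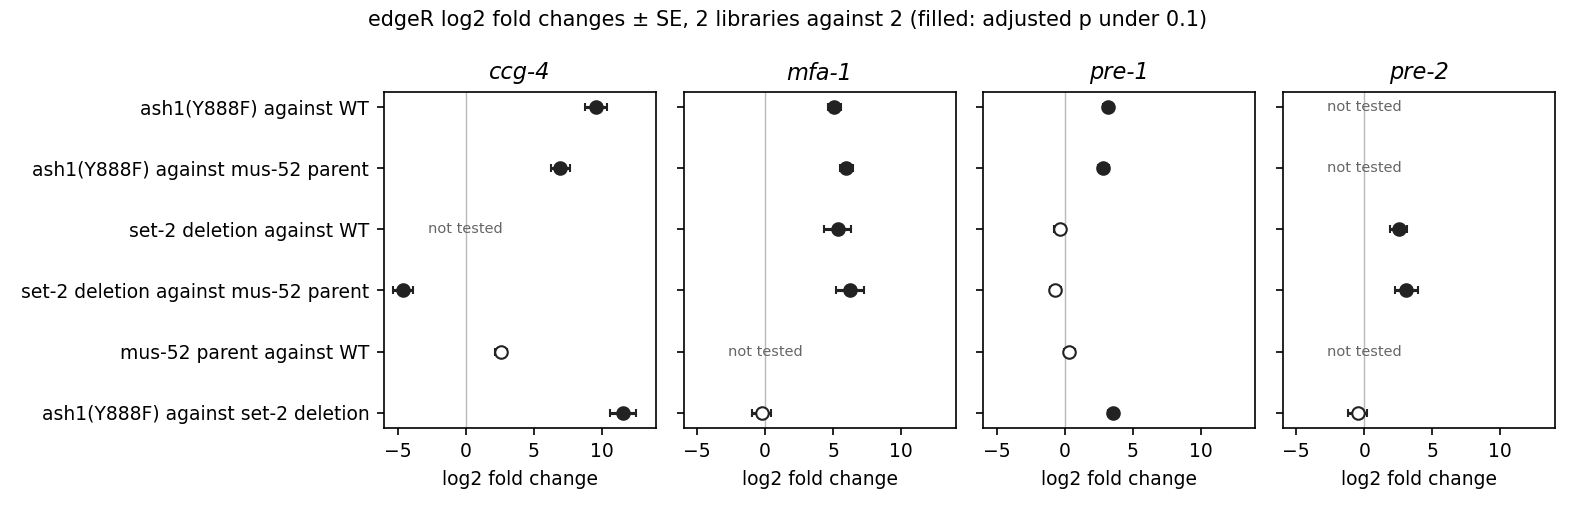
Log2 fold changes (x axis) of the 4 genes in 6 comparisons of strains (rows), 2 libraries against 2, with bars of 1 SE, filled where the edgeR adjusted p was under 0.1. *ccg-4* and *pre-1* were higher in *ash1*(Y888F) than in every other strain, *mfa-1* was higher in both mutants than in either control, and *pre-2*, which could not be tested between *ash1*(Y888F) and either control, was called in Δ*set-2* at 2.52 against WT and 3.08 against the parent.

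In Δ*set-2*, which is *mat a*, the genes of the *mat a* side rose. *mfa-1*, the *mat a* precursor gene, had 748 and 127 counts, or 93.2 and 15.4 CPM, against 1.58 and 1.20 CPM in WT. Both Δ*set-2* libraries were above both WT libraries, but they were 6.04-fold apart, against 1.91-fold for *mfa-1* in *ash1*(Y888F). The log2 fold change was 5.33 (SE 0.97, edgeR adjusted p = 0.0121), the 42nd highest of 7741 genes, with a ratio of summed counts of 39.0 (exact 95% counting interval 25.1 to 64.1). Without WT replicate 2 it was 5.13 with an adjusted p of 0.107.

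*pre-2*, the receptor gene of *mat a* females, had 13 counts in each Δ*set-2* library, or 1.62 and 1.58 CPM, against 0.430 and 0.133 CPM in WT. The groups did not overlap. The log2 fold change was 2.52 (SE 0.62, edgeR adjusted p = 0.0286), with a ratio of summed counts of 5.79 (exact 95% counting interval 2.01 to 22.8). This call rests on few counts and did not hold in every fit, with an adjusted p of 0.137 by DESeq2, 0.104 with all 4 strains in the fit, 0.187 without WT replicate 2 and 0.118 without Δ*set-2* replicate 2. With the parent as control the log2 fold change of *pre-2* was 3.08 (SE 0.86, adjusted p = 0.0339) and that of *mfa-1* 6.24 (SE 1.05, adjusted p = 0.00781).

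The genes of the *mat A* side did not rise in Δ*set-2*. *ccg-4* had 0 and 2 counts in Δ*set-2*, the lowest of the 4 strains, and could not be tested against WT, where it had 8 counts in both libraries together. The ratio of summed counts, Δ*set-2* over WT, was 0.223 (exact 95% counting interval 0.0230 to 1.12), and without the filter on low counts the edgeR adjusted p was 0.259. Against the parent, where *ccg-4* had 57 counts in all, the gene fell by 4.60 on the log2 scale (SE 0.75, edgeR adjusted p = 0.00714).

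*pre-1* had 13 and 17 counts in Δ*set-2*, or 1.62 and 2.07 CPM, against 2.72 and 2.27 CPM in WT. Both values were under both WT values. The log2 fold change was -0.37 (SE 0.39, edgeR adjusted p = 0.499), and against the parent it was -0.69 (SE 0.41, adjusted p = 0.212), so no change was detected with either control.

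In all, 2 of the 4 genes were called higher in Δ*set-2* than in WT, *pre-1* was not called and *ccg-4* was not tested. Of all 7741 genes tested, 21.7% were higher and 19.8% lower. Both Δ*set-2* libraries lay above both WT libraries for *mfa-1* and *pre-2* (34.4% of all genes tested did) and below them for *ccg-4* and *pre-1* (38.6% did). Of the 655 tested genes that are ASH1-marked without H3K27me2/3, 35.1% were higher. *pre-2* passed the filter through the Δ*set-2* libraries alone, as did *mfa-1*, so a lower call was hardly open to either. Against the parent, *mfa-1* and *pre-2* were called higher and *ccg-4* lower, where 27.2% of all genes were higher and 25.1% lower. In that comparison *mfa-1* and *pre-2* passed the filter through the Δ*set-2* libraries alone, and *ccg-4* through the parent libraries alone. The opposite call was therefore hardly open to any of these genes, and their directions are not separate results.

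The direct comparison of the mutants, fitted together with WT, separated the 4 genes into pairs. *ccg-4* was higher in *ash1*(Y888F) by a log2 fold change of 11.56 (SE 0.97, edgeR adjusted p = 0.000749), the seventh highest of 8314 genes. Since Δ*set-2* had 2 counts in all, the ratio of summed counts of 3597 has a wide exact 95% counting interval, 995 to 29704. *pre-1* was higher in *ash1*(Y888F) by 3.54 (SE 0.38, edgeR adjusted p = 0.00172), a ratio of summed counts of 12.1 (exact 95% counting interval 8.28 to 18.2). In the *mat A* pair, then, the change against WT differed between the mutants. Between the second *ash1*(Y888F) library and the Δ*set-2* libraries, which carry the same date in their names, *ccg-4* stood at 642 CPM against 0 and 0.243, and *pre-1* at 25.3 against 1.62 and 2.07.

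For the *mat a* pair no difference between the mutants was detected. The CPM of *mfa-1* overlapped, with 60.6 and 31.8 in *ash1*(Y888F) between the 93.2 and 15.4 of Δ*set-2*, and the log2 fold change was -0.27 (SE 0.71, edgeR adjusted p = 0.812). The spread of the Δ*set-2* libraries decides this value, since without Δ*set-2* replicate 1 it was 1.57 with an adjusted p of 0.0992. *pre-2* also overlapped, with 1.84 and 0.530 CPM against 1.62 and 1.58, and its log2 fold change was -0.50 (SE 0.67, edgeR adjusted p = 0.631). Thus 2 of the 4 genes were called higher in the ASH1 mutant and none lower, where 17.7% of all genes tested were higher and 14.02% lower. *ccg-4* passed the filter of this fit through the *ash1*(Y888F) libraries alone, so a lower call was hardly open to it.

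The order of the 4 levels differed between the strains. Per kb, the order in *ash1*(Y888F) was *ccg-4* (197 CPM per kb), *mfa-1* (39.8), *pre-1* (6.46) and *pre-2* (0.677), and no neighbours in it overlapped between libraries. In Δ*set-2* it was *mfa-1* (46.8), *pre-2* (0.913), *pre-1* (0.541) and *ccg-4* (0.0561), again with no overlap. There *pre-2* came before *pre-1* only per kb, since its CPM was not the higher in either library (1.62 and 1.58 against 1.62 and 2.07). In the parent *ccg-4* (1.60) led, followed by *pre-1* (0.924), *mfa-1* (0.633) and *pre-2* (0.110). The place of *ccg-4* therefore ran from first in *ash1*(Y888F) and the parent to last in Δ*set-2*.

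The balance of the precursor genes within a library showed the same contrast. Per kb, the level of *ccg-4* over that of *mfa-1* was 0.244 and 0.179 in the WT libraries and 2.32 and 2.77 in those of the parent. For *ash1*(Y888F) the ratio was 1.88 and 10.8, and for Δ*set-2* it was 0 and 0.00844. *mfa-1* thus exceeded *ccg-4* in both WT libraries although WT is *mat A*. The level of *pre-1* over that of *pre-2* was 3.26 and 8.74 in the WT libraries, 5.23 and 24.6 in those of *ash1*(Y888F), and 0.514 and 0.673 in those of Δ*set-2*. Per kb the receptor ratio was under 1 only in the *mat a* strain, on 13 to 17 counts a gene. Without division by the spans of 3408 and 1753 bases, *pre-1* and *pre-2* were both at 1.62 CPM in Δ*set-2* replicate 1. In replicate 2 they were at 2.07 and 1.58 CPM, so the ratio under 1 rests on the spans. The ratio per kb was 5.14 in the first parent library, and in the second parent library *pre-2* had 0 counts.

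Of the 40 genes in windows of 5 genes on each side of the 4, 30 could be tested, and in *ash1*(Y888F) 4 were higher and 2 lower, where 12.96% of all genes tested were higher and 3.36% lower. Their median log2 fold change was -0.02. The immediate neighbours lie 139 to 1403 bases away except on one side of *pre-1*, where the next gene (NCU00142) starts after a gap of 14537 bases. NCU02499, 242 bases from *ccg-4*, had a log2 fold change of -0.14 (edgeR adjusted p = 0.800). NCU01258, 439 bases from *mfa-1*, had 0.84 (adjusted p = 0.195), and NCU00137, 139 bases from *pre-1*, had -0.61 (adjusted p = 0.335). On the other side of *mfa-1*, NCU01257, 672 bases away, had -1.32 (adjusted p = 0.111). None of these 4 neighbours is ASH1-marked. Both immediate neighbours of *pre-2* are marked. NCU05757, 1285 bases away, had 0.43 (edgeR adjusted p = 0.580), and NCU05759, 1403 bases away, was too low to be tested.

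Of the 40 flanking genes 9 are ASH1-marked, 1 near *ccg-4*, 2 near *mfa-1*, none near *pre-1* and 6 near *pre-2*, and none is marked by H3K27me2/3. Only 4 marked flanking genes could be tested, and 3 of them were higher in *ash1*(Y888F), where 56.5% of all tested genes of that class were. NCU05757 was the one not called. NCU02503 and NCU16993 passed the filter through the *ash1*(Y888F) libraries alone, so a lower call was hardly open to them. NCU02503, 6581 bases from *ccg-4*, rose from 1 and 0 WT counts to 16 and 20 in *ash1*(Y888F), a ratio of summed counts of 37.1 (exact 95% counting interval 6.24 to 1505, edgeR adjusted p = 0.0173). NCU16993, 14159 bases from *mfa-1*, rose from 7 and 5 WT counts to 175 and 180 in *ash1*(Y888F), a log2 fold change of 4.93 (SE 0.42, edgeR adjusted p = 0.00317), and was at 6 and 5 counts in Δ*set-2*. NCU16993 thus rose in *ash1*(Y888F) as *mfa-1* did, while in Δ*set-2* its counts overlapped those of WT.

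Near *pre-2*, the marked gene NCU05755 and its unmarked neighbour NCU05756 were higher in both mutants. The WT libraries held 52 and 38 counts of NCU05755, those of *ash1*(Y888F) 574 and 246, and those of Δ*set-2* 437 and 718. The log2 fold changes were 3.29 (SE 0.55, edgeR adjusted p = 0.0156) and 3.56 (adjusted p = 0.00245). NCU05756 had 1.86 (adjusted p = 0.0818) and 2.51 (adjusted p = 0.0122). On the other side of *pre-2*, the next 5 genes had at most 6 counts in any library, so whether they moved with *pre-2* could not be tested.

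The 2 flanking genes that were lower in *ash1*(Y888F) are both unmarked and both near *ccg-4*. NCU02502 fell from 1158 and 1154 WT counts to 286 and 342 in *ash1*(Y888F) (log2 fold change -1.81, edgeR adjusted p = 0.00826), but it had 297 and 208 in the parent, so the difference lay between WT and the other strains. NCU02497 was lower in both mutants, with log2 fold changes of -1.33 for *ash1*(Y888F) (adjusted p = 0.0495) and -1.58 for Δ*set-2* (adjusted p = 0.0219).

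**Figure D3:**
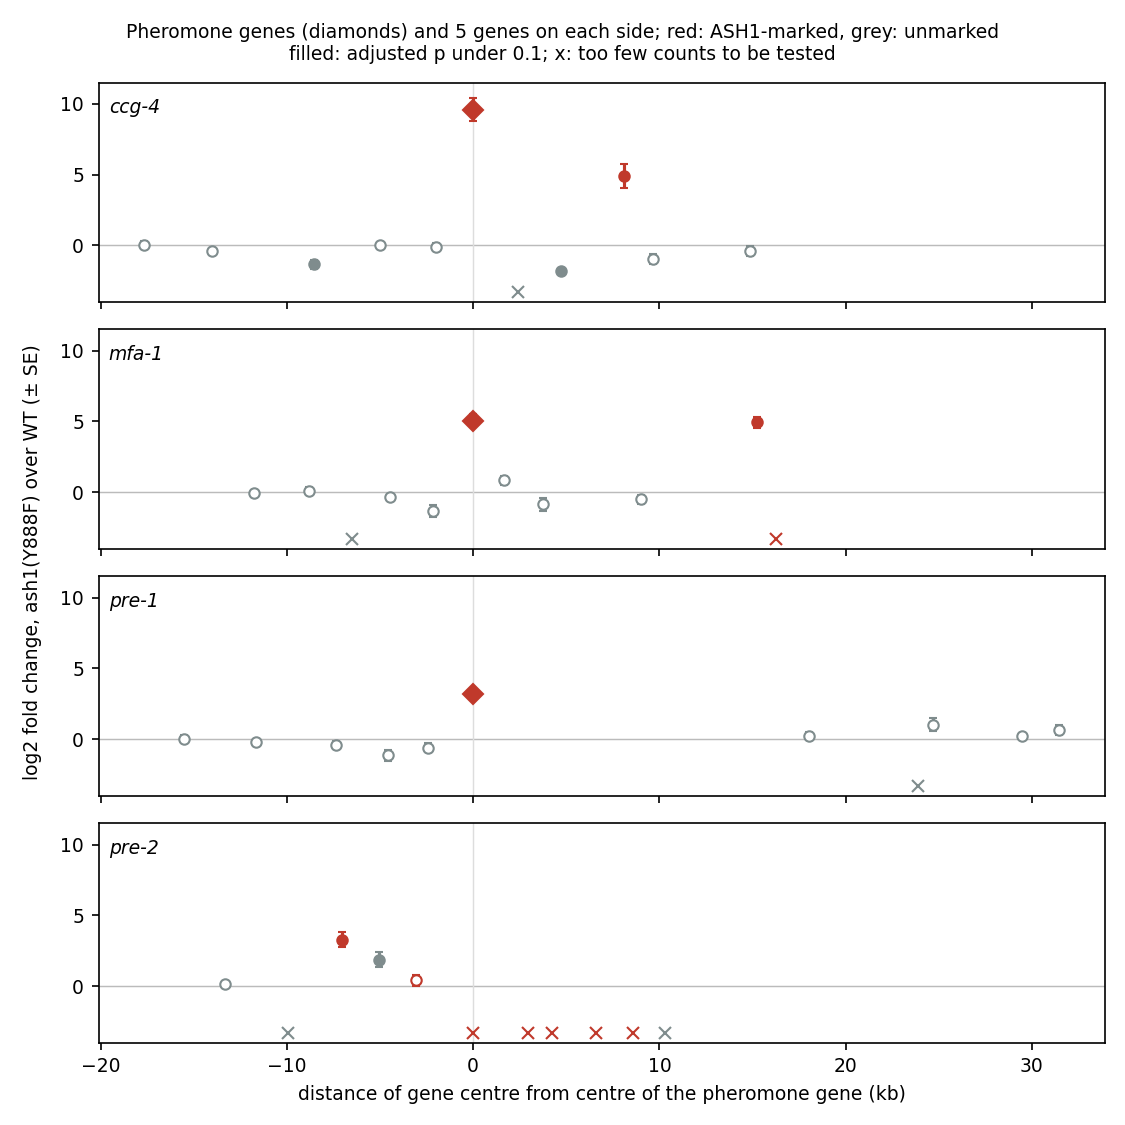
Log2 fold changes in *ash1*(Y888F) over WT (y axis, ± SE) of the 4 pheromone genes (diamonds) and of the 5 genes on each side, against the distance between gene centres in kb. Filled symbols passed an adjusted p of 0.1, crosses had too few counts to be tested, and red symbols are ASH1-marked. *ccg-4*, *mfa-1* and *pre-1* each had the highest log2 fold change among the tested genes of their own window. The marked flanking genes NCU02503 and NCU16993 are the next high points near *ccg-4* and *mfa-1*. NCU16993 (4.93, SE 0.42) and *mfa-1* (5.07, SE 0.48) differ by less than either SE, so their order is not resolved. NCU02502 is the lowest point at -1.81.

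No gene of the pathway that carries the pheromone signal was called in *ash1*(Y888F). The list held 17 genes for the G protein subunits, their regulators, the MAP kinase cascade and its transcription factors, and none is ASH1-marked. Of these, 16 could be tested, and edgeR called 0 in *ash1*(Y888F), with 1 at an unadjusted p under 0.05 and 0 called by DESeq2, where 12.96% of all genes tested were higher and 3.36% lower. Their log2 fold changes ran from -0.44 to 0.65 with a median of 0.14, against 0.01 for all genes tested, and the smallest edgeR adjusted p was 0.153. These genes were already transcribed in WT, from 7.48 CPM per kb for *ham-5*, the scaffold of the MAP kinase cascade, to 847 for *cpc-2*, a RACK1-type protein. The exception was *fmf-1*, a regulator of fertility, which had at most 1 count in any library.

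In Δ*set-2*, 3 of the 16 tested pathway genes were higher and 1 was lower, against 21.7 and 19.8% of all genes. *adv-1*, which encodes a zinc finger transcription factor of cell fusion and sexual development, rose from 1077 and 956 WT counts to 4030 and 3099 in Δ*set-2*. Its log2 fold change was 1.70 (SE 0.23, edgeR adjusted p = 0.00566), and the call held in all 11 alternative fits. *gng-1*, the G protein gamma subunit gene, fell by 0.70 on the log2 scale (SE 0.17, adjusted p = 0.0255), and without WT replicate 2 its adjusted p was 0.108. *ham-5* (0.76, adjusted p = 0.0435) and the G protein alpha subunit gene *gna-3* (0.55, adjusted p = 0.0775) were called against WT and not against the parent (adjusted p = 0.229 and 0.492). Neither call held without WT replicate 1 (adjusted p = 0.170 and 0.179) or without Δ*set-2* replicate 2 (0.194 and 0.356), and *gna-3*, lost in 7 of 11 alternative fits, also failed without WT replicate 2 (0.260), by DESeq2 (0.174) and with the replicate number as a block (0.145).

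The 3 listed genes of the mating-type locus, which control mating identity, were called higher in *ash1*(Y888F), as *ccg-4* was. Of all genes tested there, 12.96% were higher and 3.36% lower. *mat A-1* rose from 13 and 15 WT counts to 239 and 486 in *ash1*(Y888F), a log2 fold change of 4.73 (SE 0.43, edgeR adjusted p = 0.00368). *mat A-2* was at 0 counts in both WT libraries and had 46 and 55 in *ash1*(Y888F), at least 34.7-fold higher with a floor of 3 counts over the WT libraries (adjusted p = 0.00716). *mat A-3* rose from 0 and 1 WT counts to 38 and 88 in *ash1*(Y888F), a ratio of summed counts of 129.8 (exact 95% counting interval 22.9 to 5166, adjusted p = 0.00883). *mat A-2* and *mat A-3* passed the filter through the *ash1*(Y888F) libraries alone, and *mat A-1* was high enough in both strains. A lower call was therefore hardly open to *mat A-2* and *mat A-3*, and their direction is not a separate result. *mat A-3* is the only one of the 3 on the ASH1-marked list. In Δ*set-2*, which as a *mat a* strain had 0 counts of all 3, *mat A-1* was the one that could be tested and was called lower (edgeR adjusted p = 0.00874). This call cannot be told apart from the mating type of the strain. *mat A-1* passed the filter of that comparison through the WT libraries alone, so a higher call was hardly open to it.

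Among 5 listed regulators of sexual development, *sub-1*, a GATA factor gene, was lower in *ash1*(Y888F) (log2 fold change -1.35, edgeR adjusted p = 0.0298) and in Δ*set-2* (-0.99, adjusted p = 0.0249). Against the parent neither held, at -0.41 (adjusted p = 0.292) and -0.04 (adjusted p = 0.850), and the call in *ash1*(Y888F) was also lost without WT replicate 1 (adjusted p = 0.187). *fsd-1*, a transcription factor gene of female development, had a log2 fold change of -1.24 in Δ*set-2* (adjusted p = 0.0313), or 0.142 without WT replicate 2. None of the 5 was higher in either mutant. Of all genes tested, 12.96% were higher and 3.36% lower in *ash1*(Y888F), and 21.7% higher and 19.8% lower in Δ*set-2*.

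**Figure D4:**
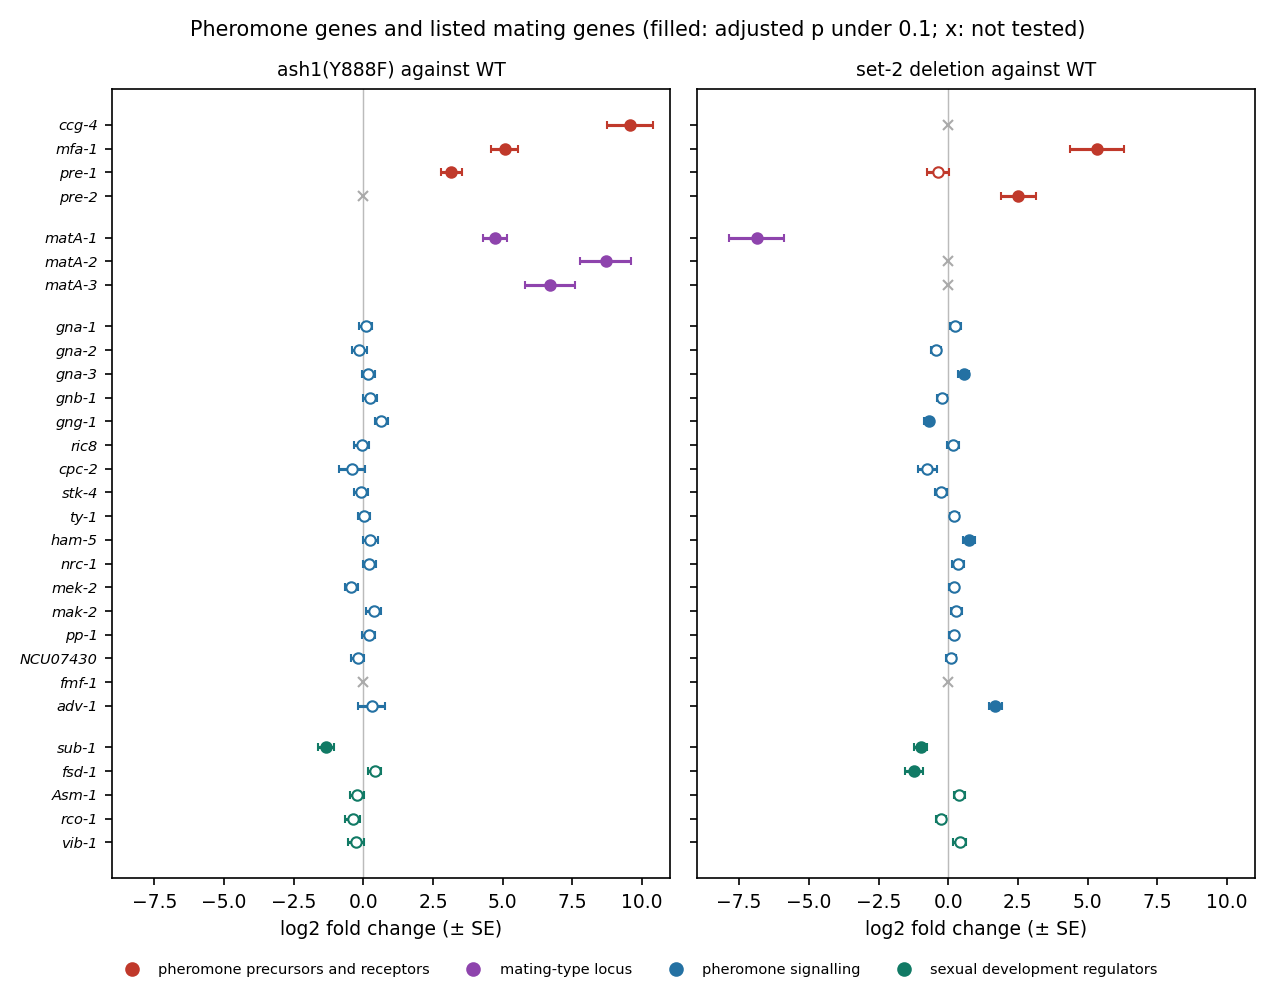
Log2 fold changes (x axis, ± SE) against WT of the 4 pheromone genes, the mating-type locus genes, the genes of pheromone signalling and the regulators of sexual development, in *ash1*(Y888F) on the left and Δ*set-2* on the right. Filled symbols passed an adjusted p of 0.1 and crosses could not be tested. In *ash1*(Y888F) the high points are *ccg-4*, *mfa-1*, *pre-1* and the *mat A* genes, while the signalling genes lie between -0.44 and 0.65.

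Markers of other developmental stages moved with the strains as well. Of 4 markers of sexual tissue, *app*, *asd-1* and *asd-3* were higher in *ash1*(Y888F), where 12.96% of all genes tested were higher and 3.36% lower. The summed level of the list was 286 and 755 CPM in *ash1*(Y888F). It was 138 and 99.4 CPM for WT, 152 and 136 for the parent, and 273 and 250.4 for Δ*set-2*. *asd-1* alone gave 223 and 722 CPM of the *ash1*(Y888F) sum and 123 and 73.8 of the WT sum. In Δ*set-2*, *asd-1* gave 124 and 105 CPM and *app* 129 and 125. *app*, which encodes an abundant perithecial protein, was called with an adjusted p of 0.0588 against WT and not against the parent (0.182). *asd-1*, an ascus development gene, had 1450 and 5443 counts in the *ash1*(Y888F) libraries, the second being the higher, as for *ccg-4*. The first was the higher for *app* (26.7 and 3.32 CPM) and *asd-4* (29.2 and 22.1), as for *mfa-1*. *asd-3* was at 7.21 and 7.56 CPM, so the markers shared no order of the 2 libraries. The call of *asd-1* was lost without either WT library (adjusted p = 0.105 and 0.201), and that of *app* without WT replicate 1 (0.103). In Δ*set-2*, where 21.7% of all genes tested were higher, *app* was the one sexual tissue marker called of 3 tested. It had 1035 and 1032 counts in Δ*set-2* against 5 and 6 in WT. Its log2 fold change there was 7.41 (SE 0.25, edgeR adjusted p = 0.000265), the call held in all 11 alternative fits, and between the mutants *app* was the higher in Δ*set-2* (*ash1*(Y888F) over Δ*set-2* -3.15, adjusted p = 0.0234). *asd-3*, another ascus development gene, was at 0 in WT replicate 2 and Δ*set-2* replicate 1, and no other marker of this list was at 0. Against WT, *app* passed the filter through the mutant libraries alone in both mutants, as did *asd-3* in *ash1*(Y888F). A lower call was therefore hardly open to *app* and *asd-3*. Of 6 conidiation markers, *con-8*, *con-10*, *eas* and *fl* were higher in Δ*set-2*, against 21.7% of all genes tested. The summed level of the list was 603 and 590.4 CPM in Δ*set-2*. It was 128 and 98.3 CPM for WT, 200.4 and 213 for the parent, and 182 and 184 for *ash1*(Y888F). Within that sum, 3 markers were called in *ash1*(Y888F) in opposite directions. *eas*, the hydrophobin gene, fell from 338 and 454 WT counts to 76 and 82 (log2 fold change -2.24, edgeR adjusted p = 0.00686), which held in all 11 alternative fits. *con-6* (2.91, adjusted p = 0.0766) and *con-10* (2.74, adjusted p = 0.0925) were higher, the former not without WT replicate 1 (0.114) or with all 4 strains in the fit (0.104), and the latter not without WT replicate 2 (0.179). *eas* was not called in Δ*set-2* against the parent (adjusted p = 0.851), and *con-13* had at most 4 counts in any library. *con-10*, at 18 and 2 WT counts, could not pass the filter on the WT libraries alone. A lower call was thus hardly open to *con-10* in either mutant. The part of either marker group in the levels of the pheromone genes was not tested.

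The genes whose profile over the 8 libraries was nearest to each pheromone gene were ranked by the root mean square difference (RMS) in log2 CPM, centred per gene, among 8327 genes. Since the ranking used these same libraries, the genes picked share the changes of their pheromone gene by selection. For *ccg-4* they were NCU05980 (RMS 0.79), *sms-2* (1.05), a gene of meiotic silencing, and NCU06590 (1.06). These 3 had log2 fold changes in *ash1*(Y888F) of 8.82, 8.95 and 8.94. For *mfa-1* they were NCU06412 (0.76), NCU08355 (0.86) and NCU01972 (0.98), all higher in both mutants, with log2 fold changes of 5.69, 4.70 and 3.52 for *ash1*(Y888F) and of 7.25, 3.11 and 3.42 for Δ*set-2*. None of these 6 genes is on the linkage group of the pheromone gene it resembles. *sms-2*, NCU06590, NCU06412 and NCU01972 are ASH1-marked, and NCU05980 and NCU08355 are not.

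The receptor genes have a closer nearest set. For *pre-1* it was NCU03861 (RMS 0.18), NCU17215 (0.26) and NCU06973 (0.27), all of them higher in *ash1*(Y888F) than in WT. For *pre-2* it was NCU06565 (0.19), NCU16568 (0.21) and NCU05165 (0.21), all higher in Δ*set-2*, with log2 fold changes of 1.25, 1.71 and 1.42, and not called in *ash1*(Y888F). The offset of 0.5 CPM shrinks the log2 differences of low genes such as *pre-1* and *pre-2*. Between the 4 pheromone genes the RMS ran from 1.39 for *pre-1* and *pre-2* to 3.66 for *ccg-4* and *pre-2*. The nearest genes were picked for the smallest RMS, so their smaller values are no finding. No pheromone gene was among the nearest 3 of another.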

How the data were processed

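Poly-A+ RNA of 4 strains was sequenced by the authors with a stranded kit. Stacks filtered and trimmed the reads, TopHat2 aligned them, SAMtools sorted them and HTSeq counted them per gene and strand. The deposited values are raw counts. Tool versions: not given in the sources used here. Reads assigned to no gene (4.89 to 14.8% per library) were left out of library sizes. A table with unnamed columns held 4 count columns that match no named library and were not used. The authors' lists of ASH1-marked and H3K27me2/3-marked genes, from ChIP-seq aligned with Bowtie2 to NC12, carry a deposited score of 0 throughout and were used as lists, and their tables of log2 H3K27 change were used only for membership. The authors' own DESeq2 comparisons (fold changes and p-values) were not used.

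edgeR 4.0.16 in R 4.3.3 compared 2 libraries against 2 by its quasi-likelihood test, after TMM scaling and filterByExpr (minimum count 10), with calls at p under 0.1 after Benjamini-Hochberg adjustment over all genes tested. WT was included in the fit that compared the mutants. Standard errors divide the log2 fold change by the square root of F. The study calls the libraries biological duplicates. Exact 95% intervals of count ratios are Clopper-Pearson and cover counting error only. Levels per kb use gene spans, since exon lengths were not used here, and profiles use log2(CPM + 0.5). Alternatives were DESeq2 1.42.0, RLE scaling, no filter, a fit of all strains, a block for the replicate number, a threshold of 0.05, the parent alone or with WT as the control, and each library left out (a lone library is assumed to vary like the other strains). The edgeR fits were tested on simulated data. Tables and figures were made in Python 3.11.15 (pandas 2.3.3, numpy 2.4.6, scipy 1.17.1, matplotlib 3.10.9).

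Beside the 4 genes, the text names listed genes called in either mutant, the 3 genes of nearest profile and the called genes among 5 on each side. Other genes named were chosen after their values were seen. The members and lists were chosen with earlier results of these data known. All 39 listed locus tags matched RefSeq's NC12 annotation, 32 of them by symbol.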

Additional observations from a re-analysis of the deposited data

Results flagged for a closer look

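For *ccg-4* the change against WT differed between the mutants. The direct comparison of *ash1*(Y888F) with Δ*set-2* gave a log2 difference of 11.56 (edgeR adjusted p = 0.000749), with 1382 and 4840 counts against 0 and 2. For *pre-1* it gave 3.54 (edgeR adjusted p = 0.00172), with 122 and 191 counts against 13 and 17. Both *ash1*(Y888F) libraries lay above both Δ*set-2* libraries for both genes. The strains also differ in mating type and at *his-3*, which cannot be told apart from the methyltransferases.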

How the results depend on the processing

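Of 140 log2 fold changes of the 4 genes recomputed under the alternatives, 128 kept their direction and their side of the threshold, and 37 of 46 recomputed numbers of called genes were equal. In *ash1*(Y888F) against WT, *ccg-4*, *mfa-1* and *pre-1* were called under all 11 alternatives each, with adjusted p at or under 0.0169. Leaving out 1 library gave log2 fold changes of 8.55 to 10.16 for *ccg-4*, 4.53 to 5.45 for *mfa-1* and 2.91 to 3.36 for *pre-1*. In Δ*set-2* against WT, the 2 genes called became 1 by DESeq2 and 1 with all 4 strains in the fit, where *pre-2* had log2 fold changes of 2.56 (adjusted p = 0.137) and 2.49 (0.104), and 0 to 2 when 1 library was left out. It became 3 with the parent in place of WT or beside it, where *ccg-4* was called lower as well. Over the fits without 1 library *mfa-1* ran from 3.49 to 6.09, and *pre-2* from 1.90 to 3.48. The call of *mfa-1* was lost without WT replicate 2, and that of *pre-2* without WT replicate 2 or Δ*set-2* replicate 2. In the parent against WT, DESeq2 called 1 gene, *ccg-4*, with a log2 fold change of 2.64 (adjusted p = 0.0443), and the log2 fold change of *pre-1* ran from -0.051 to 0.62 when 1 library was left out. Between the mutants, that of *mfa-1* ran from -1.02 to 1.57 and that of *pre-2* from -1.57 to 0.19, and the 2 genes called became 3 without Δ*set-2* replicate 1, through *mfa-1*. Except for the smaller number of libraries, the cause of these shifts was not tested. Depth limits *pre-2* and, outside *ash1*(Y888F), *ccg-4*.

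The file names number the libraries, but the labels do not pair them. Same-numbered libraries deviated with correlations of -0.19 (*ash1*(Y888F) and WT), -0.11 (Δ*set-2* and WT), 0.57 (parent and WT) and 0.38 (the mutants). With the replicate number as a block, 1 gene was called in the parent, *ccg-4* at 2.61 (adjusted p = 0.0282), and *mfa-1* between the mutants was at 0.092 in place of -0.27 (not called in either fit). The block changed no other call of the 4 genes. Of the listed genes against WT, *gna-3* in Δ*set-2* was lost with it (adjusted p = 0.145) and *con-8* in *ash1*(Y888F) was gained (0.0804).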
